A study of Botryllus schlosseri with 27 samples.

Results

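In the colonial tunicate Botryllus schlosseri, the 150 of 50106 assembled transcripts, called contigs here, that stood farthest above the SB825 and SMH lines in colonies of the SMG line at each of 3 ages are described. They were selected on measured levels. The 3 libraries of each line and age were summed to a colony sum, reads were scaled to counts per 1000000 reads of the total (CPM), and 16158 contigs reached 2 CPM in all 3 SMG sums. These were ranked by the log2 ratio of the lowest SMG level to the highest level among the 6 SB825 and SMH sums, each with 0.05 CPM added, and the first 150 were kept. The higher level in SMG is therefore a property of the choice and is described without a test.

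The study asked how the transcriptome of whole colonies changes with age. Lines SMG, SB825 and SMH, all wild type and raised in the laboratory, were each sampled at 4 months (young), 2 years and 3 years (old), and 27 libraries were made, 3 per age of a line. The 2-year-old colony was an offspring of the old colony of its line and the young colony an offspring of the 2-year-old one, so that age and generation cannot be told apart. The study counts the libraries of a genotype as biological replicates, and the labels give all libraries of 1 line and age the same genotype name, so p-values measure the spread between libraries of 1 genotype. Colonies were taken at stage B2 of the budding cycle and poly(A) RNA was sequenced from the whole colony, in which fewer cells of a type and less RNA per cell cannot be told apart. No gene was deleted and no agent was given in these groups. The columns of the young SMG libraries write the line as SMGO, and they were treated as the same line.

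A Botryllus colony consists of many genetically identical zooids that share a tunic and a vascular bed and are replaced at regular intervals by new buds. Colonies founded from different larvae differ in genotype, and wild populations of this species are highly polymorphic. A contig is a stretch of transcript joined from sequenced fragments, and its count is the number of reads that matched the assembled sequence. Different contigs may come from alleles of 1 gene or from parts of 1 transcript, so the contigs below are not independent genes. Contig lengths were not used here, so levels are compared for 1 contig between colonies and not between contigs.

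Libraries held 31013902 to 48426188 reads and colony sums 109038294 to 126872964 reads. Reads were counted in pairs, since every count was even. At this depth 3 reads in a colony sum, taken as the floor for a count of 0, correspond to at most 0.0275 CPM, which concerns counting error only. Since reads came in pairs, this floor is lower than one of 3 pairs would be. Fold values against it are therefore not lower limits. The 10 contigs with the most reads took 6.54% to 12.2% of the reads in young SMG libraries and 18.6% to 25.5% in the libraries of the 2 older SMG ages. The names of human and Ciona homologs were taken from the part of the study's homolog list at hand, which names 299 of the 16158 contigs at the SMG minimum. None of the 150 contigs has a name there, so no function is given to any of them.

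A small set of the contigs was close to absent outside SMG. The lowest SMG sum was 10 or more times the highest other sum, or its floor, in 22 contigs, 4 to 10 times in 18, 2 to 4 times in 55 and less than 2 times in 55, with a median of 2.48 and a minimum of 1.60. Only 3 contigs had no read in any SB825 or SMH library, while 126 had reads in all 6 of the other colony sums. The list therefore runs from contigs that were near 0 outside SMG to contigs that were less than 2 times as high.

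CCTT42584.b1 had 5.19, 6.15 and 4.49 CPM in the young SMG libraries, 4.05, 3.80 and 3.36 CPM at 2 years and 5.01, 5.40 and 6.76 CPM at 3 years. Its lowest SMG level was 136 times the floor of the other colony sums, a value that depends on the floor chosen. Bot_c9024 had 9.61, 10.9 and 10.7 CPM in young, 2.56, 2.89 and 3.30 CPM in 2-year-old and 3.75, 2.29 and 3.11 CPM in old SMG libraries, and was at 105 times the floor. It was high in the young colony and low at both later ages without overlap, whereas the libraries of CCTT42584.b1 overlapped between the young and old colonies. Bot_c1445, the third contig without a read elsewhere, had 4.14, 5.25 and 2.51 CPM in young, 2.80, 1.87 and 2.02 CPM in 2-year-old and 4.95, 3.93 and 3.88 CPM in old SMG libraries, and was at 81.9 times the floor.

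Bot_c12912, ranked first, had 17.4, 17.9 and 13.8 CPM in young, 10.5, 12.4 and 8.29 CPM in 2-year-old and 15.1, 15.5 and 15.5 CPM in old SMG libraries. It had 2 reads in the old SMH sum, 1 read pair, and 0 in the other 5 sums of SB825 and SMH. Bot_c5431 had 142, 132 and 120 CPM in young, 33.4, 38.8 and 31.6 CPM in 2-year-old and 40.1, 32.5 and 35.6 CPM in old SMG libraries, against 0.0728 to 0.457 CPM in the 6 other sums. Every one of those sums held reads of it, from 8 to 54. Bot_rep_c37352 was at 6.74, 6.43 and 6.69 CPM in the SMG sums of 4 months, 2 years and 3 years, against 0 to 0.0728 CPM elsewhere. Bot_rep_c46971 was at 6.91, 5.19 and 6.30 CPM in the SMG sums in that order, against 0.0473 to 0.293 CPM elsewhere.

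Other contigs near the head of the list had counts in some colonies outside SMG and none in others. Bot_c4809 had 94.8, 84.2 and 81.6 CPM in young, 35.1, 40.3 and 25.4 CPM in 2-year-old and 28.1, 27.2 and 29.2 CPM in old SMG libraries, against 172 reads (1.36 CPM) in the old SMH colony and 0 reads in the other 5 sums. Bot_c34782 had 35.5, 36.6 and 35.0 CPM in young, 20.9, 22.6 and 12.5 CPM in 2-year-old and 10.7, 8.84 and 10.9 CPM in old SMG libraries, against 0.830, 0.362 and 0.0631 CPM in the SMH sums of 4 months, 2 years and 3 years. In SB825 its sums stayed between 0 and 0.0546 CPM. Bot_c5827 was at 0 in the young colonies of both other lines and at 0.309 CPM in old SB825 and 0.108 CPM in 2-year-old SMH, where library 3 held most of the reads, with 0.108, 0.0498 and 0.851 CPM in the old SB825 libraries and 0, 0.0458 and 0.302 CPM in the 2-year-old SMH ones. The rest of the first 20 had SMG sums from 2.16 to 150 CPM and sums of 0 to 2.08 CPM elsewhere.

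**Figure D1:**
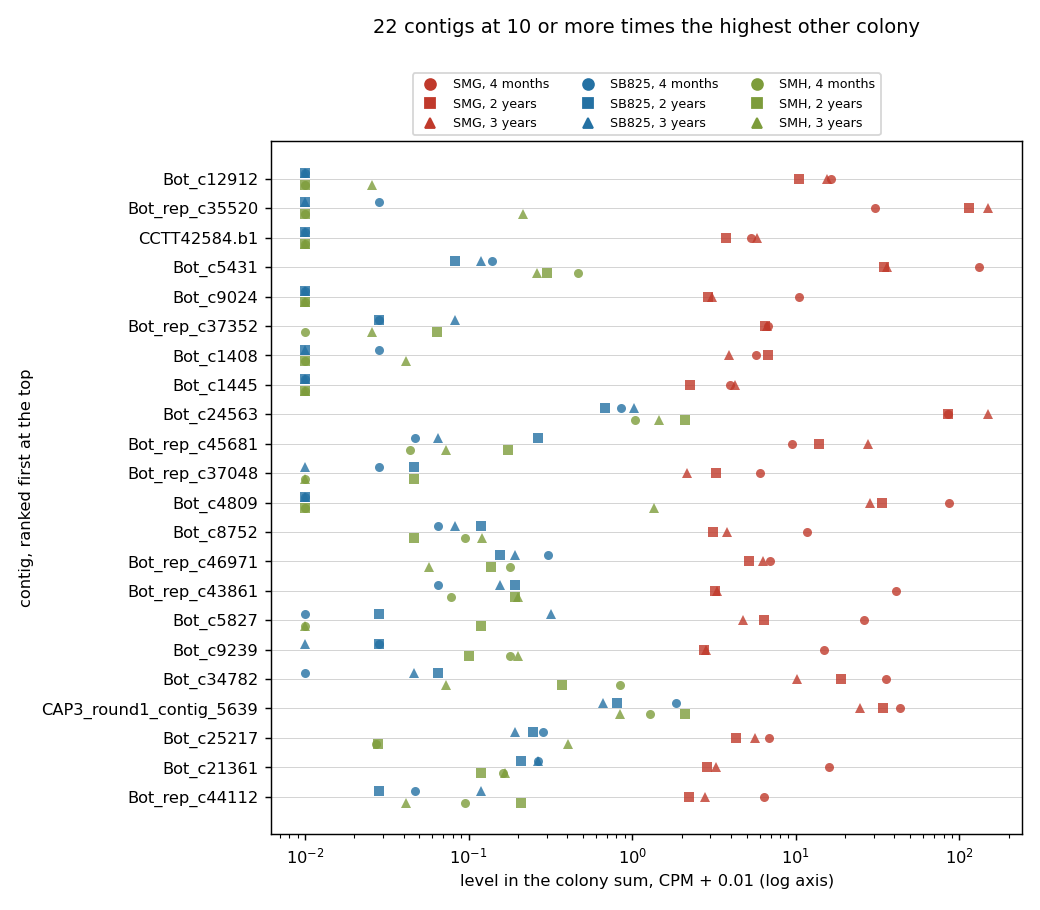
Level of the 22 contigs whose lowest SMG sum was 10 or more times the highest other sum, in the 9 colony sums (horizontal axis, CPM with 0.01 added, log scale, where 0 reads falls at 0.01; SB825 and SMH are drawn slightly above and below the SMG row). All SMG points lie above all other points by the choice of the contigs, and the 3 contigs without a read elsewhere have all 6 other points at 0.01.

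At the end of the list the contigs differed little from those that were not kept. Bot_c3934, ranked 150, had 5.15, 2.58 and 3.35 CPM in the SMG sums of 4 months, 2 years and 3 years, against 1.61 CPM in its highest other sum, young SB825. The next contig, just outside the list, had 9.12, 4.19 and 3.36 CPM in the SMG sums against 2.11 CPM, and both had a score of 0.66. The ratio of the lowest SMG sum to the highest other sum was between 1.60 and 1.62 in Bot_c3934, Bot_c3977, Bot_c17359, Bot_rep_c53657 and CAP3_round1_contig_8538, the last 5 of the list. It was between 1.57 and 1.59 in that contig, CAP3_round1_contig_3246, Bot_c19131, Bot_rep_c40466 and CAP3_round1_contig_225, the first 5 outside it.

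The same rule gave shorter lists of distinct contigs in SMG and SMH than in SB825. A level above that of every other colony sum at all 3 ages was found for 426 of 16158 contigs in SMG (2.64%), against 5374 of 21092 in SB825 (25.5%) and 328 of 18022 in SMH (1.82%). In the first 150 of each line, 22 contigs were at 10 or more times the highest other sum in SMG, against 106 in SB825 and 24 in SMH. The score at rank 150 was 0.66 in SMG, against 2.76 in SB825 and 0.42 in SMH. These are descriptions of 3 lines chosen by 1 rule, with no test of their difference. They rest on CPM by total reads, which depends on the few contigs with the most reads. The first 10 took 7.47% to 15.1% of the reads in SB825 libraries and 14.3% to 22.5% in SMH libraries.

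**Figure D2:**
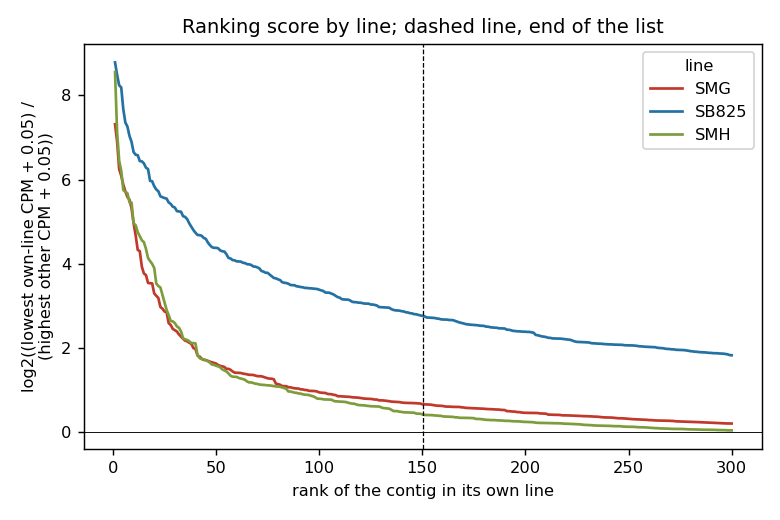
Ranking score (vertical axis, log2 ratio of the lowest level in a line to the highest level outside it, each CPM with 0.05 added) against rank (horizontal axis) for the first 300 contigs of SMG, SB825 and SMH, each ranked in its own line. The curve of SMG passes 0.66 at rank 150, where SB825 is at 2.76 and SMH at 0.42.

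The summed level of the 150 contigs was higher in every SMG library than in any SB825 or SMH library, which follows from their choice. It was 3880 to 5908 CPM in the young SMG libraries, 2174 to 2180 CPM at 2 years and 2283 to 2766 CPM at 3 years, against 320 to 582 CPM in the 18 libraries of SB825 and SMH. The median level of a contig was 14.2, 5.18 and 5.71 CPM in the SMG sums of 4 months, 2 years and 3 years, against 0.780, 0.873 and 0.937 CPM in the SB825 sums and 0.805, 0.850 and 1.06 CPM in the SMH sums, in the same order of age. In 134 of the 150 contigs (89.3%) all 9 SMG libraries lay above all 18 others, against 1.14% of the contigs at the SMG minimum, and nothing is read from this share because the same contrast chose the contigs. The libraries overlapped in the other 16, and 34 contigs fell under 2 CPM in 1 or more SMG libraries, since the rule was applied to sums.

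**Figure D3:**
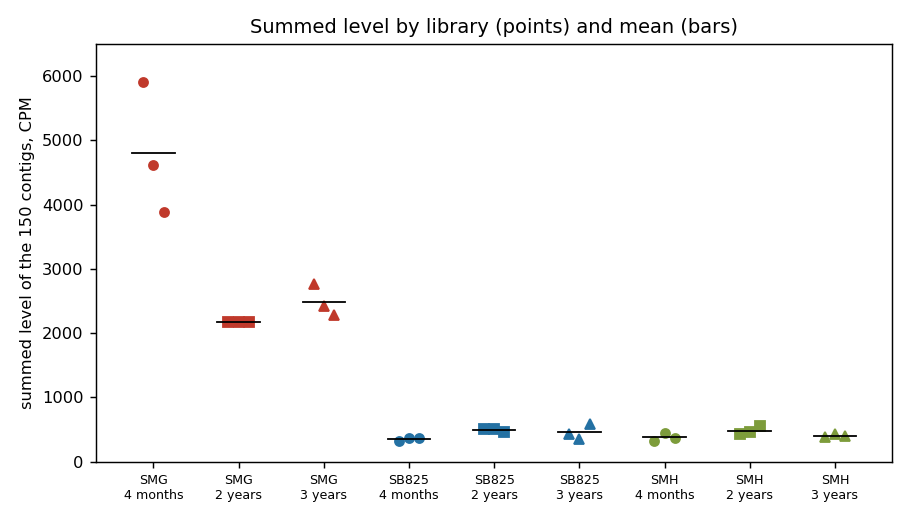
Summed level of the 150 contigs (vertical axis, CPM) in each of the 27 libraries (points) with the mean of 3 libraries (bars), by line and age. The 9 SMG libraries sit between 2174 and 5908 CPM, all above the 18 other libraries, and the 3 points of the 2-year-old SMG colony nearly coincide.

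Outside SMG most of the contigs were also measured in both other lines, at lower levels, and a smaller number in 1 line or 1 colony. A level of 10% of the lowest SMG sum or more was taken as present, a limit chosen after the data were seen. By it 22 contigs were present in no other colony, 14 in SMH alone, 5 in SB825 alone and 109 in both lines. In all 6 colonies 66 were present. The 22 are by this limit those at 10 or more times the highest other sum, and some, such as Bot_c5431, had reads elsewhere. Of the 12 contigs present in exactly 1 other colony, 8 were present in old SMH. Old SMH was the highest of the 6 other colonies for 38 contigs. The count was 27 for 2-year-old SB825, 26 for young SB825, 24 for 2-year-old SMH, 21 for old SB825 and 14 for young SMH. These counts by colony were not made over all contigs at the SMG minimum. Nothing is therefore read from them about a leaning of the listed contigs to old SMH.

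Bot_rep_c35104 had 56.1, 66.3 and 58.5 CPM in young, 8.59, 13.9 and 16.0 CPM in 2-year-old and 17.5, 19.2 and 18.8 CPM in old SMG libraries, against 3.33, 8.01 and 8.48 CPM in the old SMH libraries and no read in the other 15 libraries of SB825 and SMH. The old SMH libraries all held it, and the 2-year-old and young SMH libraries, descended from that colony by label, did not. Bot_rep_c52327 was at 67.2, 15.3 and 21.7 CPM in the SMG sums of 4 months, 2 years and 3 years, against 8.59 CPM in old SMH and 0.532 to 0.864 CPM in the other 5 sums. Bot_c3977 was at 21.9, 5.01 and 4.31 CPM in the SMG sums in the same order, against 2.67 CPM in old SB825, where its 3 libraries had 2.76, 2.39 and 2.92 CPM, and 0 reads in the other 5.

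Pairs of colonies also shared a contig with SMG. Bot_c20675 had 351, 284 and 165 CPM in young, 89.8, 45.2 and 144 CPM in 2-year-old and 157, 199 and 190 CPM in old SMG libraries, against 42.8 and 52.5 CPM in the young and 2-year-old SMH sums, 0.331 CPM in the old SMH sum and 0 to 0.109 CPM in SB825. Bot_rep_c35640 was at 41.3 to 150 CPM in the 9 SMG libraries, against 12.3 and 14.0 CPM in the 2-year-old and old SB825 sums, 0.147 CPM in the young SB825 sum and at most 0.110 CPM in SMH. In both cases neighbouring generations of 1 line differed widely in the same contig. Bot_rep_c42106 instead followed a line, with 6.13 to 13.1 CPM in the SMG sums, against 2.88 to 3.78 CPM in the 3 SMH sums and 0 to 0.0546 CPM in SB825.

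Within SMG, the young colony held the highest level of most of these contigs. The young sum was the highest of the 3 in 125 contigs (83.3%), the 2-year-old sum in 5 (3.33%) and the old sum in 20 (13.3%), against 70.7%, 8.01% and 21.3% of all 16158 contigs at the SMG minimum. The order young, old, 2 years from high to low was found in 78 contigs and the order young, 2 years, old in 47. The highest and lowest SMG sums of a contig differed by a median of 2.73-fold, against 2.26-fold in all contigs at the minimum, with extremes of 1.01 and 12.7. The share highest in the young colony is to be read beside the 70.7% of all contigs at the same minimum, which also were mostly highest there.

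Bot_c1910 differed least between the sums, with 6.24, 6.15 and 4.70 CPM in young, 6.37, 6.16 and 4.48 CPM in 2-year-old and 5.22, 5.73 and 5.95 CPM in old SMG libraries, which overlapped at all 3 ages. Bot_rep_c37352, Bot_rep_c53910, Bot_c47311 and Bot_c32725 came next, with sums within 1.09-fold of each other. With TMM scaling, used for the tests below, Bot_c1910 had a log2 fold change of 0.44 at 2 years against 4 months (SE 0.14, adjusted p = 0.015 by edgeR) and Bot_rep_c37352 one of 0.39 (SE 0.16, adjusted p = 0.049 by edgeR), while with library totals alone both were near 0, at -0.01 and -0.09. Bot_rep_c53910 is in this set although its libraries lay far apart, as given below.

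The age comparison did not choose the contigs, although the rule asked for 2 CPM at every age and ranked by the lowest. It was tested on the 9 SMG libraries with edgeR's quasi-likelihood test over 39032 contigs, with Benjamini-Hochberg adjustment over all of them and the 10% false discovery rate of the study. At 3 years against 4 months, 103 of the 150 contigs fell (68.7%) and 10 rose (6.67%). Of all contigs tested, 32% fell and 47.5% rose, and of those at the SMG minimum 55.8% fell and 22.4% rose. The median log2 fold change was -0.93 for the 150 contigs, 0.41 for all contigs tested and -0.46 for those at the SMG minimum. The median of the 150 was thus below that of both sets, and the count that fell is nearest to the share in contigs at the same minimum. With library totals alone 108 fell and 5 rose, where 34.6% of all contigs tested fell and 42.2% rose. With 1 library left out 100 to 106 fell and 6 to 14 rose, the 14 without the young library 1. The contigs with all 3 old libraries below all 3 young ones were 102, and 12 had all 3 above. The same count was not made over all contigs, so nothing is read from it about the 150.

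At 2 years against 4 months, a comparison that shares the young libraries, 101 contigs fell (67.3%) and 10 rose (6.67%). Of all contigs tested 31.2% fell and 46.2% rose, and of those at the SMG minimum 56.7% fell and 21.1% rose. With library totals alone 116 fell and 2 rose, where 39.1% of all contigs tested fell and 36.7% rose. With 1 library left out 95 to 102 fell and 7 to 18 rose, the 18 without the young library 1. The median log2 fold change was -0.84 for the 150 contigs, 0.37 for all contigs tested and -0.47 at the minimum. With library totals alone in place of TMM scaling, the median of all contigs moved by more than 0.1 in each comparison, to 0.20 at 3 years and -0.05 at 2 years against 4 months, and the median of the 150 relative to it stayed at -1.36 and -1.24, against -1.35 and -1.21 with TMM.

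At 3 years against 2 years the contigs differed less. Of the 150, 28 fell (18.7%) and 11 rose (7.33%), where 13% of all contigs tested fell and 13.7% rose, and 14.8% of those at the SMG minimum fell and 13.8% rose. The median log2 fold change was -0.10 for the 150 contigs and -0.02 for all contigs. With library totals alone 13 fell and 16 rose, where 6.11% of all contigs fell and 18.1% rose, the median of the 150 turned to 0.14 and that of all contigs to 0.22, so that the balance of directions at these 2 ages follows the scaling.

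**Figure D4:**
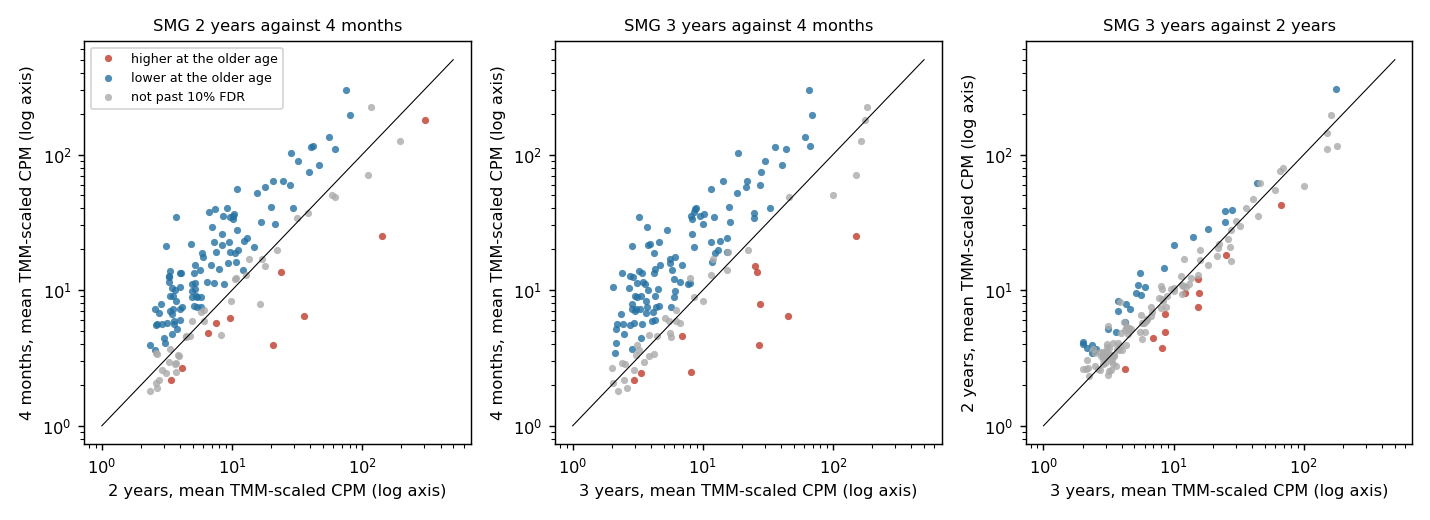
Mean TMM-scaled level of the 150 contigs in SMG at the older age (horizontal axis, CPM, log scale) and the younger age (vertical axis, CPM, log scale) for the 3 age comparisons, coloured by the call at a 10% false discovery rate; the line marks equal levels. Against 4 months most points lie above the line, 101 called lower at 2 years and 103 at 3 years, while at 3 years against 2 years 111 of the 150 are not called.

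Bot_rep_c43861, Bot_c19160 and CAP3_round1_contig_8599 had the largest falls at 2 years against 4 months, and their highest sums outside SMG were 0.189, 0.508 and 3.29 CPM in that order of contigs. Bot_rep_c43861 had 52.2, 41.3 and 30.3 CPM in young, 2.94, 4.12 and 2.58 CPM in 2-year-old and 2.83, 3.00 and 3.88 CPM in old SMG libraries. It was high in the young colony alone and fell by 3.44 on the log2 scale at 3 years (SE 0.17, adjusted p = 2.9e-09 by edgeR) and by 3.23 at 2 years (SE 0.17, adjusted p = 8.0e-09). Bot_c19160 had 24.0, 27.03 and 22.8 CPM in young, 3.04, 3.26 and 1.85 CPM in 2-year-old and 3.05, 2.57 and 3.02 CPM in old SMG libraries. It fell by 2.89 at 3 years and by 2.76 at 2 years against 4 months. CAP3_round1_contig_8599 had 46.3, 46.2 and 38.5 CPM in young, 5.74, 6.48 and 4.93 CPM in 2-year-old and 7.56, 8.68 and 9.60 CPM in old SMG libraries. The libraries of its 3 ages did not overlap, with the lowest level at 2 years, and it fell by 2.49 at 2 years and by 2.13 at 3 years against 4 months.

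Other contigs were lower still at 3 years than at 2 years. Bot_rep_c49615 had 31.2, 36.2 and 33.3 CPM in young, 5.84, 7.76 and 4.70 CPM in 2-year-old and 3.92, 3.66 and 3.70 CPM in old SMG libraries. It fell by 2.96 at 3 years against 4 months and by 0.92 at 3 years against 2 years (SE 0.15, adjusted p = 0.00045 by edgeR). CAP3_round1_contig_2451 had 26.5, 25.8 and 22.8 CPM in young, 8.01, 7.98 and 5.60 CPM in 2-year-old and 3.92, 3.17 and 4.33 CPM in old SMG libraries. Its libraries kept apart at every age, and it fell by 1.15 at 3 years against 2 years. Bot_c22330 had 20.5, 18.4 and 20.02 CPM in young, 14.8, 11.1 and 8.74 CPM in 2-year-old and 7.24, 4.97 and 4.73 CPM in old SMG libraries, and with a fall of 1.28 at 3 years against 2 years (SE 0.18, adjusted p = 0.00018 by edgeR) had the largest one between these ages. Bot_c34782, given above, fell by 1.10 between them.

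The 3 contigs with the largest rise at 3 years against 2 years differed in their young level. Bot_rep_c43853 had 30.2, 20.2 and 17.7 CPM in young, 5.98, 8.46 and 4.98 CPM in 2-year-old and 17.4, 14.5 and 14.7 CPM in old SMG libraries. It rose by 1.04 at 3 years against 2 years (SE 0.15, adjusted p = 0.00022 by edgeR), and its old libraries lay below the young ones. Bot_rep_c39755 had 15.1, 9.59 and 7.37 CPM in young, 4.87, 4.55 and 3.30 CPM in 2-year-old and 9.41, 8.63 and 7.84 CPM in old SMG libraries, and rose by 0.79 at 3 years against 2 years. Bot_rep_c39552 had 2.39, 2.97 and 3.24 CPM in young, 4.25, 4.66 and 1.18 CPM in 2-year-old and 7.24, 8.57 and 8.79 CPM in old SMG libraries. It was highest in the old colony without overlap and rose by 1.11 at 3 years against 2 years (SE 0.35, adjusted p = 0.051 by edgeR), a call lost without either of the old libraries 2 or 3.

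The 3 contigs with the largest rise against 4 months had wide spreads. Bot_rep_c56991 had 21.3, 3.29 and 0.366 CPM in young, 28.7, 20.8 and 37.6 CPM in 2-year-old and 55.2, 44.5 and 36.0 CPM in old SMG libraries, and rose by 2.78 at 3 years (SE 1.15, adjusted p = 0.067 by edgeR) and by 2.45 at 2 years (SE 1.14, adjusted p = 0.096). Bot_rep_c35520 had 81.2, 13.5 and 1.99 CPM in young, 108, 71.0 and 168 CPM in 2-year-old and 195, 146 and 114 CPM in old SMG libraries, and rose by 2.57 at 3 years (SE 1.18, adjusted p = 0.090 by edgeR) and by 2.51 at 2 years (SE 1.18, adjusted p = 0.098). Bot_c17735 had 6.88, 4.56 and 2.72 CPM in young, 10.5, 4.55 and 32.6 CPM in 2-year-old and 33.1, 30.7 and 17.9 CPM in old SMG libraries. Its old libraries were all above the young ones, whereas its 2-year-old ones overlapped them. It rose by 2.77 at 3 years (SE 0.87, adjusted p = 0.025 by edgeR) and by 2.39 at 2 years (SE 0.86, adjusted p = 0.043), and without library 3 of the 2-year-old colony the change at 2 years was 1.00 and not past the threshold. The calls of Bot_rep_c56991 and Bot_rep_c35520 at both ages were lost with library totals alone and without several single libraries, among them the young library 2. Without the young library 1, the highest of the 3, they were past the threshold with larger changes, of 4.77 at 3 years and 4.44 at 2 years for Bot_rep_c56991 (adjusted p = 0.0045 and 0.0061 by edgeR) and of 4.45 and 4.39 for Bot_rep_c35520 (adjusted p = 0.0098 and 0.011 by edgeR).

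In 5 contigs the 3 young SMG libraries lay more than 10-fold apart, which no contig of the list showed in the 2-year-old or old SMG libraries. Bot_rep_c53910 had 490, 5.72 and 1.10 CPM in the young libraries 1, 2 and 3, 144, 54.5 and 264 CPM in the 2-year-old ones and 266, 161 and 71.2 CPM in the old ones. Its young sum of SMG rests on library 1 alone, and it was at 2.02 CPM in young SB825 and 1.20 CPM in young SMH, where the 2-year-old and old sums of these lines held 42.5 to 63.7 CPM. CAP3_round1_contig_5324 had 55.7, 8.96 and 1.15 CPM in the young libraries, and Bot_c1408 12.4, 4.13 and 1.20 CPM. Bot_rep_c56991 and Bot_rep_c35520 are the others, and in all 5 library 1 was the highest and library 3 the lowest. This order of the young libraries was shared by 97 of the 150 contigs (64.7%) and by 55.5% of the contigs at the SMG minimum.

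The summed level of the contigs named as digestive enzymes moved in the same order. This list of 94 contigs was found by name patterns for trypsin, chymotrypsin, carboxypeptidase, elastase, lipase and amylase. The patterns were searched among contigs that the study had listed for a difference with age in these samples. None of the 150 contigs has a name there, so the list could hold none of them. Its sum was 4980, 750 and 268 CPM in the young SMG libraries 1, 2 and 3, 2839, 1687 and 3948 CPM in the 2-year-old ones and 8230, 5651 and 2965 CPM in the old ones. In young SMG libraries 16, 26 and 40 of the 94 contigs had no read, and in the older SMG libraries none was without a read. Its order at 4 months and 3 years was shared by 2 of the other lists given below. The lectin and immune list had 3578, 3044 and 1831 CPM at 4 months and 606, 557 and 478 CPM at 3 years. The cytoskeleton list had 209, 176 and 92.2 CPM and 569, 524 and 511 CPM. At 2 years library 2 was highest in both, unlike in the digestive list. The order of the 3 libraries matched that of the digestive sum at all 3 ages in 12 of the 150 contigs (8%). The share was 2.91% in the contigs at the SMG minimum.

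These 12 contigs, set apart after the data were seen, were Bot_rep_c35520, Bot_c1408, Bot_c24563, Bot_rep_c55541, Bot_rep_c56991, Bot_rep_c53910, Bot_rep_c51260, Bot_rep_c36934, CAP3_round1_contig_5324, CAP3_round1_contig_8325, Bot_c17735 and Bot_c4985. Bot_c24563, for example, had 192, 49.2 and 24.4 CPM in young, 70.7, 37.0 and 152 CPM in 2-year-old and 199, 151 and 109 CPM in old SMG libraries. Of the 12, 3 rose and 0 fell at 3 years against 4 months, while of the 470 contigs at the SMG minimum with the same library order 22.1% rose and 9.36% fell. The 470 were taken from all contigs at the SMG minimum, so they include these 12. They could also include any of the 46 contigs at that minimum from the digestive list, whose sum set the order. Few of the contigs in this order thus fell. In this comparison the median log2 fold change was 0.41 for the 12 and -1.04 for the other 138. It was 0.61 for the 470 and -0.46 for all contigs at the SMG minimum. The spread of the young libraries is wide in several of the 12, so the number called among them is uncertain. All 3 with the largest rise are among the 12. The part of digestive tissue in these levels was not tested.

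**Figure D5:**
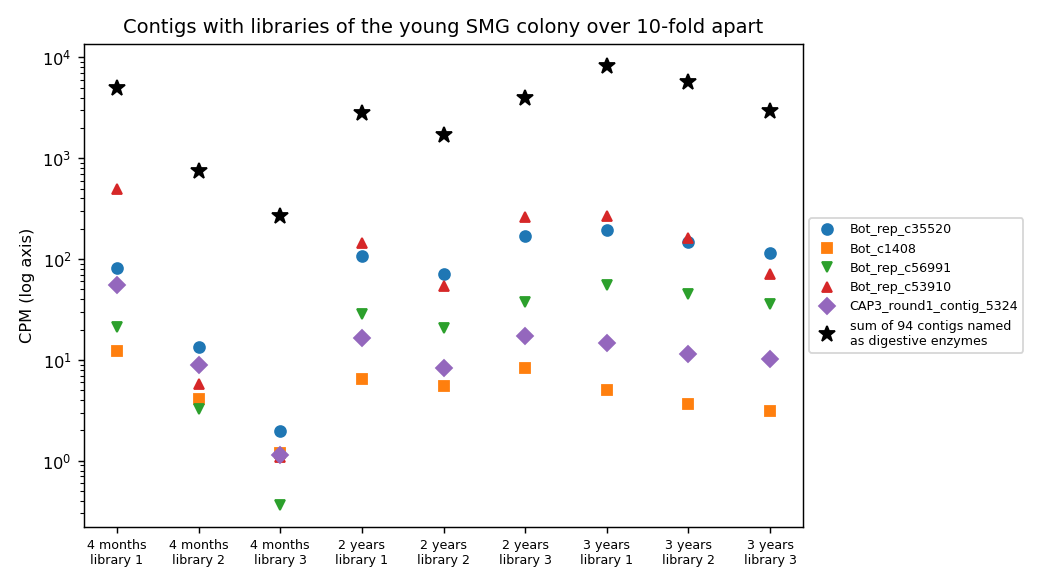
Level of the 5 contigs whose young SMG libraries lay more than 10-fold apart, and summed level of 94 contigs named as digestive enzymes (stars), in the 9 SMG libraries (vertical axis, CPM, log scale; horizontal axis, age and library). In all of them library 1 is highest and library 3 lowest at 4 months, library 3 is highest at 2 years, and library 1 is highest at 3 years.

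The other fixed name lists could not hold any of the 150 contigs either, since none of these has a name at hand. Some of the lists moved with age in SMG. Their patterns were matched anywhere in a name, and actin, for example, also matches the word interacting. A list may therefore hold contigs of another kind. The 34 contigs named for testis, sperm or the axoneme summed to 3.84, 296 and 229 CPM in the SMG colonies of 4 months, 2 years and 3 years, with 14 of the 34 without a read at 4 months. The 30 named for ribosomal proteins summed to 16687, 2537 and 1521 CPM in that order, but 28 of the 30 had no read at 4 months, 18 at 2 years and 0 at 3 years, so that the young sum rests on the remaining 2. The 81 named for lectins and immune receptors summed to 2789, 400 and 543 CPM, and the 21 named for the extracellular matrix to 283, 182 and 1021 CPM. The 27 named for the cytoskeleton summed to 157, 675 and 533 CPM and the 4 named for transposon or viral enzymes to 3.17, 12.2 and 22.6 CPM. Their part in the age differences of the 150 contigs was not tested.

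The names of the contigs carry 1 of several prefixes, and these were unevenly represented among the 150 contigs. The prefix Bot_rep_c was carried by 62 of the 150 (41.3%), against 26.9% of the contigs at the SMG minimum, and CAP3_round1 by 23 (15.3%), against 39.3%. Among contigs with a lowest SMG level of 2 to 10 CPM the shares were 25.9% and 32.2%. Over all 50106 contigs they were 25.5% and 20.1%. The first 150 contigs of SB825 had 40.7% and 15.3%, and those of SMH 42.0% and 21.3%. The share of Bot_rep_c was thus above that of all contigs in the lists of all 3 lines. The share of CAP3_round1 in the SMH list was near that of all contigs. Shares among the contigs at the same minimum in SB825 or SMH were not counted. These shares were not tested, and the meaning of the prefixes is not given in the sources used here.

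The contigs that stood farthest apart from the other lines varied in their age pattern. Of the 22 contigs at 10 or more times the highest other sum, 12 fell (54.5%) and 2 rose (9.09%) at 3 years against 4 months, beside 55.8% and 22.4% of the contigs at the SMG minimum, with a median log2 fold change of -0.80. Bot_c5431 fell by 1.66 (SE 0.10, adjusted p = 1.7e-08 by edgeR), Bot_c4809 by 1.42 and Bot_c9024 by 1.58. Bot_c12912 had a log2 fold change of 0.12 (SE 0.11, adjusted p = 0.35 by edgeR) and Bot_rep_c46971 one of 0.06 (SE 0.17, adjusted p = 0.76 by edgeR), neither past the threshold and both negative with library totals alone. Bot_rep_c45681, with 20.9, 5.51 and 3.14 CPM in young, 16.5, 10.8 and 13.8 CPM in 2-year-old and 36.1, 24.9 and 22.2 CPM in old SMG libraries, rose by 1.79 (SE 0.64, adjusted p = 0.039 by edgeR), and by 2.79 without the young library 1, while the call was lost without the young library 2 (1.52, adjusted p = 0.11 by edgeR).

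CAP3_round1_contig_7510 had the highest summed SMG level of the list. It had 206, 216 and 206 CPM in young, 309, 371 and 131 CPM in 2-year-old and 176, 187 and 172 CPM in old SMG libraries, against 24.8 to 96.2 CPM in the 6 other sums. It rose by 0.75 at 2 years against 4 months (SE 0.24, adjusted p = 0.022 by edgeR), with 1 of the 3 libraries of the 2-year-old colony below all young ones, a call lost with library totals alone (0.37, adjusted p = 0.26 by edgeR), and had a log2 fold change of -0.03 at 3 years against 4 months (SE 0.24, adjusted p = 0.91 by edgeR). Bot_rep_c56364 had 382, 364 and 303 CPM in young, 60.8, 83.2 and 50.6 CPM in 2-year-old and 70.3, 61.0 and 68.0 CPM in old SMG libraries, and was present in every other colony, at 12.8 to 25.8 CPM. It fell by 2.19 at 3 years against 4 months.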

How the data were processed

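RNA of whole colonies was sequenced as paired-end poly(A) libraries on an Illumina HiSeq instrument, 27 in all (3 lines, 3 ages, 3 libraries each). The authors removed the first bases of the reads, mapped them with Bowtie 0.12.7 to an EST assembly and deposited raw counts of reads per contig. This version of Bowtie aligns without gaps, so that a count is of reads that closely matched the assembled sequence. A deposited table of the authors' own comparison of old and young libraries (base means, fold changes and p-values) was not used. CASAVA 1.8.2, SAMtools 0.1.18 and DESeq 1.10.1 are also named in the submitters' processing notes.

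Counts were summed by line and age and scaled to CPM, without TMM, for the choice of contigs. Ages were compared within SMG with edgeR 4.0.16 in R 4.3.3 (TMM, filterByExpr by group, robust glmQLFit, glmQLFTest) on 9 libraries, and log2 fold changes are older minus younger. Standard errors were taken from the F statistic. The code was tested on simulated data. Alternatives were DESeq2 1.42.0, library totals alone, no filter, all 27 libraries in the fit, read pairs, a block for the replicate number, and each library left out in turn. For the choice, the pseudocount, minimum and scaling were changed.

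The contigs named are the first 20, that with the highest summed SMG level, the last 5 and the 5 just outside, the 3 largest calls in each direction per comparison, and the 5 smallest and 5 largest ranges over SMG ages. Others, such as those held by single colonies, were chosen after their values were seen. The contigs and lists were chosen with earlier results of these data known. Homolog names come from the first 1998 rows of a supplementary list, on which no overlap was tested. Contig sequences and positions were not used here, so none is shown.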

Additional observations from a re-analysis of the deposited data

Results flagged for a closer look

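The summed level of the 150 contigs moved in opposite directions in 2 lines between 4 months and 2 years. In SMG it was 2174 to 2180 CPM in the 2-year-old libraries, against 3880 to 5908 CPM in the young ones, a log2 ratio of -1.14. In SB825 it was 459 to 508 CPM in the 2-year-old libraries, against 328 to 374 CPM in the young ones, a log2 ratio of 0.46. Libraries of the 2 ages did not overlap in either line. A sum gives most weight to the contigs with high levels, and 10 contigs held 40.9% of the summed SMG level. Bot_rep_c53910 was among those with a low young and a higher 2-year-old sum in SB825, as given above. The median level of a contig went from 14.2 to 5.18 CPM in SMG and from 0.780 to 0.873 CPM in SB825. The difference between the lines was not tested, and the contigs were chosen for a high level in SMG.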

How the results depend on the processing

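The number of the 150 contigs called was 113 at 3 years against 4 months, 111 at 2 years against 4 months and 39 at 3 years against 2 years, and it stayed within 1.5 times under every alternative run. With 1 library left out in turn it ranged over 107 to 115, 102 to 118 and 28 to 45. With library totals alone it was 113, 118 and 29. With the replicate block it was 113, 108 and 37. Libraries with the same number had correlations of -0.089 to 0.16, of which 2 of 9 were over 0.1. Those with other numbers had correlations of -0.22 to 0.12. With 3 libraries per age, these values cannot decide whether the numbers mark a pairing. Under the block, Bot_c17735, Bot_rep_c56991 and Bot_rep_c35520 at 2 years against 4 months (adjusted p of 0.14, 0.11 and 0.11 by edgeR) and Bot_rep_c39552 at 3 years against 2 years (0.11) were not past the threshold. Of 31 changes of named contigs for which the text gives a value, 28 were called, of which 18 were kept under all 15 alternatives and 10 were not under 1 or more. These are those of Bot_rep_c56991 and Bot_rep_c35520 against 4 months at both ages, Bot_c17735, Bot_c1910, Bot_rep_c37352 and CAP3_round1_contig_7510 at 2 years against 4 months, Bot_rep_c45681 at 3 years against 4 months (adjusted p = 0.11 by edgeR without the young library 2) and Bot_rep_c39552. With library totals alone Bot_c1910 (-0.0050) and Bot_rep_c37352 (-0.091) at 2 years against 4 months changed sign, as did the uncalled Bot_c12912 (-0.092) and Bot_rep_c46971 (-0.13, and -0.11 without the young library 1) at 3 years. The uncalled CAP3_round1_contig_7510 at 3 years was at 0.015 with read pairs and ranged from -0.14 to 0.040 with 1 library left out.

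The list itself depended more on the settings. Of its 150 contigs, 72 remained with a minimum of 5 CPM, 110 with a minimum of 1 CPM, 121 with TMM-scaled sums, 146 with 0.5 CPM added and 139 to 149 with 1 of the 27 libraries left out. With a minimum of 5 CPM fewer contigs can enter. Chi-square values per degree of freedom of 4.43 to 121 between libraries of an SMG colony left none as a duplicate.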
